A study of Mus musculus with 30 samples.

Results

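The genes described here are the protein-coding neighbours of Lrrk2 on mouse chromosome 15, taken as every protein-coding gene whose start lies between positions 86673175 and 96816120 of GRCm38, which reaches 5 Mb beyond each end of Lrrk2 (91673175 to 91816120), with Lrrk2 itself left out. The GENCODE annotation gives 66 such genes among the 37945 genes of the table, 46 of them before Lrrk2 and 20 after it. Counts were found for 61 of the 66, and 47 passed the filter on low counts and were tested among 14338 genes. Membership rests on position alone, but the members were chosen with earlier results of these data known.

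The data are bulk RNA sequencing of primary mouse microglia, the resident macrophages of the brain, in 30 libraries. All mice were labelled C57BL/6 at postnatal day 21 and were either wild type (WT) or Lrrk2-/- (KO), and the cells were labelled Control, LPS or α-synuclein fibrils. Wild-type cells gave 5 control, 6 LPS and 4 fibril libraries, and KO cells gave 6 control, 4 LPS and 5 fibril libraries. LPS, a bacterial cell wall component, activates Toll-like receptor 4, and α-synuclein fibrils are the aggregated form of the protein that accumulates in Parkinson's disease. The dose, the treatment time, the sex, the exons removed from Lrrk2, the stem cell strain and the backcrossing behind the allele are not given in the labels. Nothing in the labels says that replicates came from separate animals or cultures, so the p-values measure the spread between these libraries, which may be technical.

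A targeted allele is inherited together with the DNA on either side of it. When a line is made in stem cells of another strain and then backcrossed, a segment of the donor chromosome can stay linked to the allele, and genes in it can carry other sequence variants than the control animals do. A deletion can also change the expression of nearby genes directly, by removing or joining regulatory DNA. Comparisons of knockout and control cells are therefore often read together with a look at the genes beside the target.

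The libraries held 8935154 to 35672852 counts assigned to genes, with a median of 20430073. Levels are given as CPM, a gene's counts relative to the library's total after scaling by a trimmed-mean (TMM) factor. Lrrk2 itself averaged 13.2 CPM in WT and 2.78 in KO control, 14.9 and 3.50 with LPS, and 7.95 and 1.30 with fibrils, and every KO library lay below every WT library of its treatment. Markers of microglia summed to between 4560 and 7730 CPM in every library, with none at 0. Of 10 such markers Csf1r alone was called, lower in KO with fibrils by 0.90 on the log2 scale. In the average over treatments it was lower by 0.47 ± 0.09 (adjusted p = 0.00116, edgeR). Over all genes 8.94% were called with fibrils and 11.2% in the average. Of 3 tested border macrophage markers none was called within a treatment, and Mrc1 was called in the average over treatments, lower by 0.33 ± 0.08 (adjusted p = 0.0122). Markers of other brain cells were also present, and a score was formed as the mean log2 CPM of 31 astrocyte, oligodendrocyte, neuron, endothelial and fibroblast genes. This other-cell score ran from -0.43 to 2.60 in WT and 1.14 to 3.42 in KO control, from -0.80 to 2.76 in WT and 0.68 to 2.67 in KO with LPS, and from -0.89 to -0.52 in WT and 0.98 to 2.37 in KO with fibrils. The genotypes overlapped in control and LPS and were separate with fibrils. The median score was 1.25 in WT and 2.55 in KO control, 1.20 and 1.49 with LPS, and -0.58 and 2.08 with fibrils. A set of 7 libraries stood apart in composition, total or other-cell markers (KO control 1, 4 and 6, KO fibrils 5, WT control 6, WT LPS 1 and 6), and for the KO comparisons the values without them are given where leaving them out changed a call.

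Irak4, the kinase that MyD88 recruits below Toll-like and interleukin-1 receptors, was lower in KO microglia in every treatment, the only flanking gene of which this was called 3 times. Its start lies 2.73 Mb beyond the end of Lrrk2, at chromosome 15, 94543643 to 94581815 on the plus strand. Its promoter region is shown because it is shared with a neighbour that did not move with it: Pus7l, a pseudouridine synthase-like gene, is read from the opposite strand and ends 96 bases before Irak4 begins. The RefSeq promoter windows (GRCm38.p6, 250 bases before to 50 after the start) of the pair have 252 bases in common. The window of Irak4, chr15:94543410-94543709 on the plus strand, is printed 5′ to 3′ with matches to an ETS core, a CCAAT box and a GC box, searched on both strands, in capitals.
Irak4: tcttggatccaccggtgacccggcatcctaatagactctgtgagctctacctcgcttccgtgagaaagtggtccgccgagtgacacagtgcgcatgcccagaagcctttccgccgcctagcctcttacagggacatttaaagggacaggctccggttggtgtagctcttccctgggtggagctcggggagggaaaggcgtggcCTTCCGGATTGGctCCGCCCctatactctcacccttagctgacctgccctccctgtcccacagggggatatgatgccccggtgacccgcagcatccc
All 3 matches lie in the bases shared with Pus7l and none overlaps another. The ETS core was searched as CCGGAAG, which is found in 9.08% of 27025 promoter windows of the same length. The CCAAT box was searched by the letters of its name, found in 37.8% of windows. The GC box was searched as GGGCGG, found in 35.6% of windows. No match to TATAAA, which 14.1% of windows hold, was found in it. The window holds 16 CpG dinucleotides against a median of 7.

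In untreated cells Irak4 was at 32.5, 39.7, 34.3, 32.1 and 30.4 CPM in WT, and in KO the lowest, median and highest of 6 libraries were 18.6, 21.3 and 24.3. With LPS the 6 WT libraries ran from 28.5 to 33.4 with a median of 32.5, and the KO libraries were at 16.1, 16.3, 16.8 and 14.2. With fibrils the WT libraries were at 30, 27.7, 28.6 and 24.8 and the KO libraries at 17.4, 18.5, 16.5, 17.3 and 18.9. The genotypes did not overlap in any treatment.

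In log2 terms Irak4 fell by 0.65 ± 0.08 (SE) in control (adjusted p = 8.05e-06), by 1.00 ± 0.08 with LPS (adjusted p = 4.02e-08) and by 0.65 ± 0.08 with fibrils (adjusted p = 4.17e-05, edgeR quasi-likelihood test). The KO mean was 0.636, 0.50 and 0.638 times the WT mean. Exact permutation of the library labels gave two-sided p = 0.00216, 0.00476 and 0.00794 without adjustment. These are the smallest values that 462, 210 and 126 splits can give, and each was 0.0286 after adjustment over 36 tests. The call held when any single library was left out, and with the other-cell score as a covariate Irak4 fell by 0.64, 1.00 and 0.63. The difference with LPS minus that in control was -0.35 ± 0.11, with a 95% interval of -0.58 to -0.12, and it was not called over all genes (adjusted p = 0.991).

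**Figure D1:**
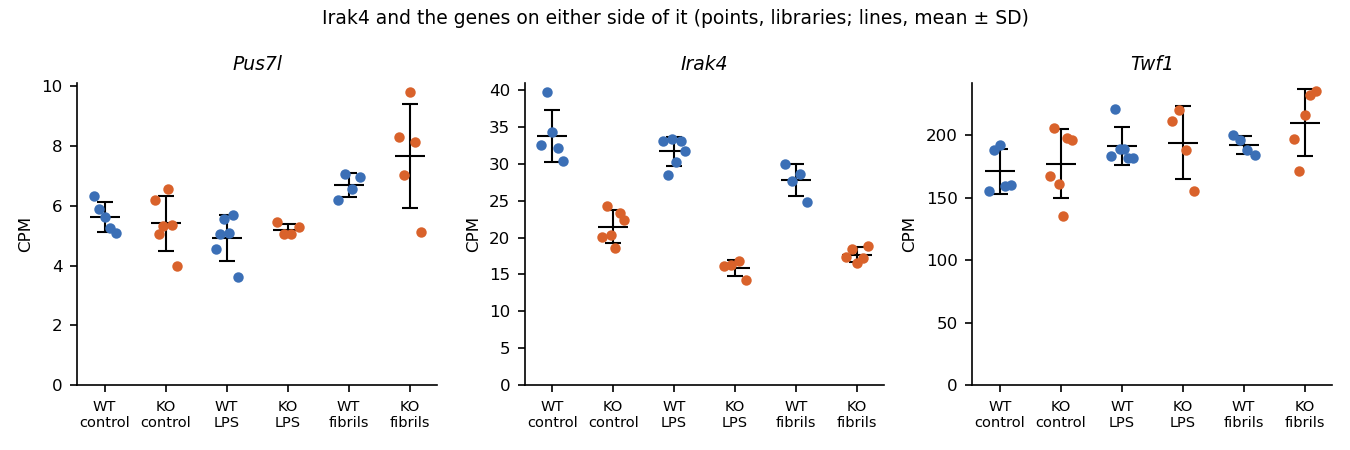
CPM of Pus7l, Irak4 and Twf1 in each library (points) with the group mean ± SD (lines), by genotype (blue WT, orange KO) and treatment. Irak4 separates the genotypes in all 3 treatments, with KO means of 21.5, 15.9 and 17.7 against WT means of 33.8, 31.7 and 27.8, while the genotypes overlap for Pus7l and Twf1.

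The neighbours on either side of Irak4 did not follow it. Pus7l averaged 5.63 ± 0.499 CPM in WT (SD, n = 5) and 5.41 ± 0.908 in KO control (n = 6), with log2 differences of -0.06 (95% interval -0.35 to 0.23) in control, 0.08 (-0.23 to 0.38) with LPS and 0.20 (-0.12 to 0.51) with fibrils. Its genotypes overlapped in every treatment. Without the 7 libraries that stood apart Pus7l was among the genes called with fibrils, and it was higher in KO. The KO fibril libraries left were at 8.3, 7.03, 9.8 and 8.15 CPM, and the WT ones at 6.19, 7.08, 6.56 and 6.98. Twf1, which encodes the actin-monomer-binding protein twinfilin-1, runs on the opposite strand and overlaps the last 3865 bases of Irak4. Twf1 averaged 171 ± 17.8 CPM in WT and 177 ± 27.7 in KO control, with differences of 0.05 (-0.16 to 0.27), 0.02 (-0.21 to 0.25) and 0.13 (-0.11 to 0.37). The library kit keeps strand, but no source says whether counting used it, so reads of the overlap may have been shared between both genes. The overlap touches the longer transcript Irak4-202 alone, since the most counted one, Irak4-201, ends at 94568306.

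Among the annotated transcripts of Irak4, the full coding transcript Irak4-201 held 95.3% of the gene's WT control counts and carried the difference. It fell by 0.68 ± 0.10, 0.99 ± 0.11 and 0.62 ± 0.11 in the 3 treatments and was called in each, against 0.0947%, 0.162% and 0.706% of 36974 transcripts called in control, LPS and fibrils and 1.52% in the average. Of 128 tested transcripts of flanking genes, 1, 1, 3 and 8 were called in these comparisons. In the average 6 were higher and 2 lower, and Irak4-202 was called there beside Irak4-201. Irak4-203, a retained-intron transcript that covers the first part of the gene, was at 1.09, 0.448 and 0.564 CPM in WT and 1.54, 0.934 and 1.00 in KO, and its differences of 0.51, 1.11 and 0.83 were not called. Its share of the gene's counts was 3.20% in WT and 7.08% in KO control. Reads shared between transcripts of a gene make single transcripts uncertain.

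**Figure D2:**
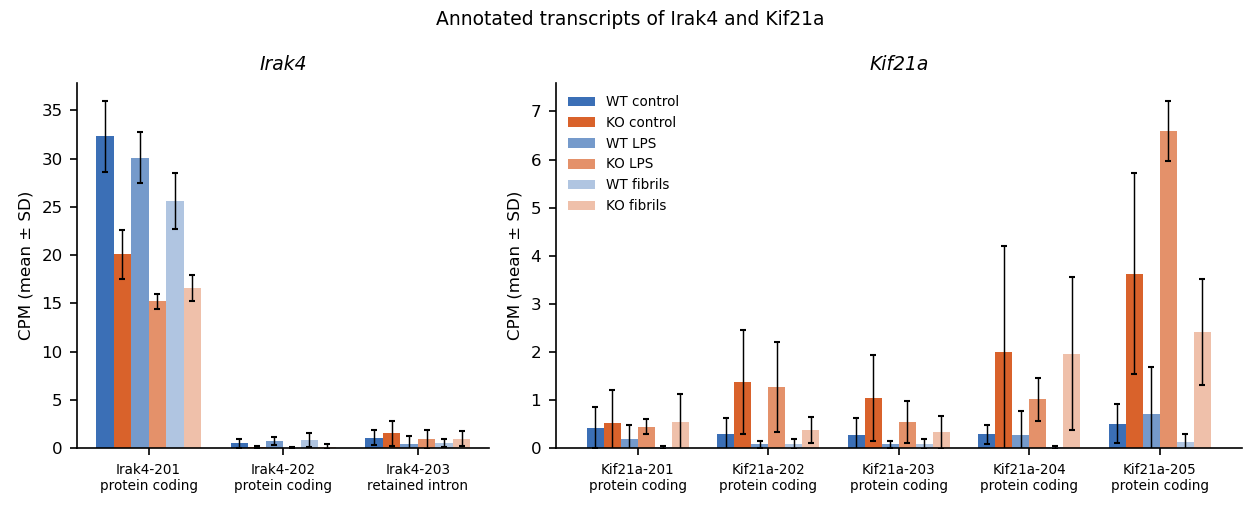
Mean CPM ± SD (bars, cut at 0) of each annotated transcript of Irak4 and Kif21a by genotype (blue WT, orange KO) and treatment (paler for LPS and palest for fibrils). Irak4-201 is lower in KO in each treatment, and Kif21a-205 is the most counted Kif21a transcript in all KO groups, at 3.63, 6.59 and 2.41 CPM.

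Kif21a, which encodes a kinesin motor of the kinesin-4 family best known in neurons, was the flanking gene with the largest averaged increase. It lies 0.62 Mb before Lrrk2, at chromosome 15, 90933276 to 91049948 on the minus strand. Its RefSeq promoter window, chr15:91049902-91050201 on the minus strand, is shown as that of the most increased gene, with its single match to the motifs named above, a GC box, in capitals.
Kif21a: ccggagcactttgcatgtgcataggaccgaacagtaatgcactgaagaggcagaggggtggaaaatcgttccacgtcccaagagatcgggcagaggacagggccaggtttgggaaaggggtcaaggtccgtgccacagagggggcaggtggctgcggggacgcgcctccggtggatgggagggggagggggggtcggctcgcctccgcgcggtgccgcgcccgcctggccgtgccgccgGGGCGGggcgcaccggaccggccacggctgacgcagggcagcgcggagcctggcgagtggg
The window holds 30 CpG dinucleotides, more than 88.6% of windows do, and no CCAAT, ETS core or TATAAA match.

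In WT control Kif21a was at 2.09, 0.963, 4.12, 1.41 and 0.409 CPM, and the 6 KO control libraries ran from 5.12 to 11.6 with a median of 8.80. With LPS the WT libraries ran from 0 to 4.75 with a median of 0.807, and the KO libraries were at 9.60, 9.49, 9.24 and 10.5. With fibrils the WT libraries were at 0.223, 0.397, 0.486 and 0.264, and the KO libraries at 7.41, 6.78, 5.50, 4.49 and 3.76. Every KO library lay above every WT library of its treatment.

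Kif21a was higher in KO than in WT by 2.83 ± 0.57 on the log2 scale with LPS (adjusted p = 0.00935) and by 4.01 ± 0.72 with fibrils (adjusted p = 0.00199). In control the difference was 2.23 ± 0.55 and missed the threshold (adjusted p = 0.101). The control difference was called with limma-voom (adjusted p = 0.0026), with DESeq2 (adjusted p = 0.00707), with a block for the replicate number (adjusted p = 0.0106), and when WT control replicate 3, WT LPS replicate 1 or WT LPS replicate 6 was left out (adjusted p = 0.0319, 0.0148 and 0.0253). Averaged over the treatments Kif21a was higher by 3.02 ± 0.36 (adjusted p = 2.38e-06).

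Kif21a also followed the other-cell markers, and the plot of levels against the score shows both relations. In bulk samples, fewer cells of a type and less RNA per cell cannot be told apart. With the score as a covariate the Kif21a differences were 1.67 ± 0.37 in control (adjusted p = 0.0323), 2.98 ± 0.38 with LPS (adjusted p = 4.11e-05) and 2.17 ± 0.58 with fibrils, where the call was lost (adjusted p = 0.102). The scores of the genotypes did not overlap with fibrils, so the covariate cannot tell score and genotype apart in that treatment. Without the 7 libraries that stood apart Kif21a was called in all 3 treatments, at 2.12, 3.48 and 4.13. In WT LPS replicate 1, whose score was 2.76, Kif21a stood at 4.75 CPM, below the 9.60 and 9.49 CPM of KO LPS replicates 1 and 2, whose scores were 0.95 and 0.68. These single libraries were picked after their values were seen, and WT LPS replicate 1 lay far from its group. The part of the score in the Kif21a difference was not tested by them.

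Other flanking genes higher in KO are known from glia and neurons. Mlc1 encodes an astrocyte membrane protein of the end-feet, Cntn1 the neuronal and glial adhesion molecule contactin-1, Fam19a5 a secreted chemokine-like brain protein, and Tmem117 a multi-pass membrane protein. All 4 were higher in KO than in WT with fibrils and in the average over treatments, and none was called in control or LPS alone. From control to fibrils the WT mean went from 7.84 to 0.625 CPM for Mlc1 and from 1.73 to 0.154 for Cntn1. It went from 0.862 to 0.0437 for Fam19a5 and from 0.382 to 0.132 for Tmem117. The KO means went from 13.8 to 12.4, 4.73 to 2.64, 2.97 to 1.46 and 1.29 to 0.906 in the same order.

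For Mlc1, the WT fibril libraries were at 0.0891, 0.519, 0.729 and 1.16 CPM and the KO fibril libraries at 25.6, 11.0, 16.9, 4.13 and 4.29. There was no overlap, and the log2 difference was 4.34 ± 1.15 (adjusted p = 0.0214). In control and LPS the genotypes overlapped, with differences of 0.81 ± 0.83 and 0.47 ± 0.87. The fibril call was lost when WT fibril replicate 1, 2 or 3 was left out (adjusted p = 0.0768, 0.0722 and 0.0601), and limma-voom gave an adjusted p of 0.210. With the score as a covariate it was 0.23 ± 0.64.

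Fam19a5 was at 0, 0.122, 0 and 0.0528 CPM in WT with fibrils and at 2.72, 1.63, 1.40, 0.993 and 0.530 in KO, again without overlap. Its difference was 4.67 ± 1.08 with fibrils (adjusted p = 0.0112), 1.79 ± 0.73 in control and 1.73 ± 0.75 with LPS. Leaving out WT LPS replicate 1, at 3.19 CPM, gave 2.91 ± 0.72 with LPS (adjusted p = 0.0385), and the covariate gave 2.15 ± 0.52 with LPS (adjusted p = 0.0288) and 2.06 ± 0.92 with fibrils (adjusted p = 0.512). Without the 7 libraries that stood apart it was called with LPS, at 2.64 ± 0.65 (adjusted p = 0.0168). Limma-voom did not call it with fibrils (adjusted p = 0.0762) and did with LPS (adjusted p = 0.0405).

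Cntn1, 0.24 Mb beyond Lrrk2, was at 0, 0.275, 0.182 and 0.159 CPM in WT and 3.17, 5.02, 1.45, 2.09 and 1.45 in KO with fibrils. The groups did not overlap, and the difference was 4.00 ± 0.91 (adjusted p = 0.0104), falling to 1.51 ± 0.72 with the covariate (adjusted p = 0.548), and limma-voom gave an adjusted p of 0.134. Tmem117 was at 0.0891, 0.0305, 0.304 and 0.106 CPM in WT and 1.92, 1.00, 0.900, 0.418 and 0.289 in KO with fibrils. A single KO value lay under the highest WT value. Its difference was 2.84 ± 0.86 (adjusted p = 0.0380), and 0.12 ± 0.64 with the covariate. The Tmem117 call was lost without KO fibril replicate 1 or 3 or WT fibril replicate 1, 2 or 4 (adjusted p between 0.0656 and 0.125), with limma-voom (adjusted p = 0.124) and with no filter (adjusted p = 0.056).

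**Figure D3:**
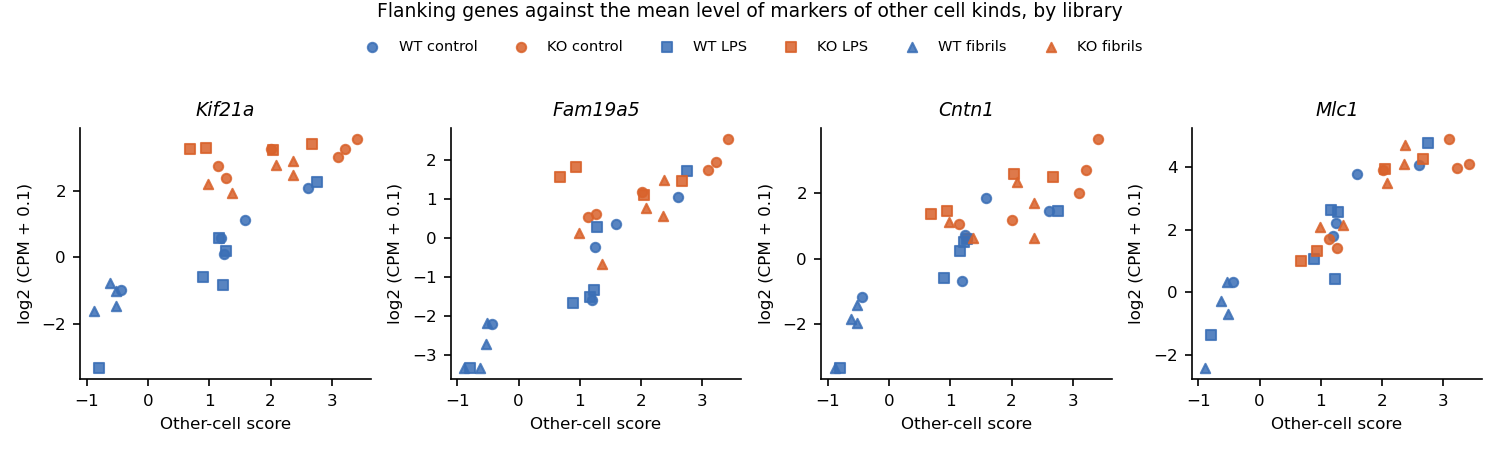
Log2 (CPM + 0.1) of Kif21a, Fam19a5, Cntn1 and Mlc1 against the other-cell score in each of 30 libraries, coloured by genotype and shaped by treatment. Levels of all 4 genes are low in the libraries of lowest score. KO LPS replicates 1 and 2, at scores of 0.95 and 0.68, stand above WT libraries of like score for Kif21a, Fam19a5 and Cntn1 but among them for Mlc1. These replicates were picked after their values were seen.

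Some markers of other cells were called beside these genes. With fibrils, 5 of 8 astrocyte, 3 of 10 oligodendrocyte-lineage, 3 of 4 tested neuronal, 2 of 4 tested endothelial and pericyte and 5 of 6 fibroblast markers were called higher in KO than in WT. None was called lower, where 5.27% of all genes were called higher and 3.67% lower. Summed astrocyte markers ran from 16.3 to 23.5 CPM in WT and 59.8 to 297 in KO with fibrils, and from 23.4 to 199 in WT and 43.9 to 242 in KO control. With fibrils summed neuronal markers (0.535 to 1.22 in WT, 3.52 to 14.2 in KO) and fibroblast markers (0.486 to 0.793, 17.9 to 72.0) were also separate. Oligodendrocyte-lineage sums (95.9 to 108, 96.9 to 340) and endothelial and pericyte sums (13.2 to 16.3, 12.5 to 25.1) overlapped. Pdgfra is counted in both the oligodendrocyte-lineage and the fibroblast list. The oligodendrocyte gene Mog and the neuronal gene Nefl were at 0 in every WT fibril library, the endothelial gene Cldn5 in every library of the KO groups and of WT with LPS, and the border macrophage gene Cd163 in every WT library. No marker of these lists was called in control or with LPS. The average over treatments gave calls for 5 of 8 astrocyte, 7 of 10 oligodendrocyte-lineage, 4 of 4 tested neuronal and 3 of 6 fibroblast markers. All of these had more in KO, and no endothelial or pericyte marker was called there. Median differences of the astrocyte, oligodendrocyte-lineage, neuronal, endothelial and fibroblast lists were 0.64, 1.56, 1.29, 0.79 and 0.42 in control. With LPS they were 0.39, 1.19, 1.32, -0.06 and -1.39. In KO with LPS, Mlc1 was at 2.4 and 1.90 CPM in replicates 1 and 2 and at 15.3 and 18.9 in replicates 3 and 4, whose scores were 2.04 and 2.67, while Kif21a was at 9.24 and 10.5 in the latter. With fibrils the scores of the genotypes did not overlap, so the covariate cannot tell score and genotype apart there. The part of these markers in the differences was not tested in another way.

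Plxnb2, the plexin-B receptor for class 4 semaphorins, had the highest level per kilobase of exon of the tested flanking genes, at 66.3 CPM per kb against a median of 5.73. The WT control libraries were at 584, 696, 591, 590 and 523 CPM and the KO control libraries ran from 413 to 603 with a median of 486. With LPS the WT libraries ran from 526 to 632 and the KO libraries were at 378, 383, 464 and 407. With fibrils they were at 522, 529, 522 and 560 in WT and 428, 458, 440, 406 and 476 in KO. KO lay below WT without overlap with LPS and with fibrils, and overlapped it in control through KO replicate 6. Plxnb2 fell by 0.50 ± 0.09 with LPS (adjusted p = 0.00565) and was lower by 0.30 ± 0.09 in control (adjusted p = 0.242) and 0.27 ± 0.10 with fibrils (adjusted p = 0.0686). The averaged decrease of 0.36 ± 0.05 was called (adjusted p = 9.27e-05). Scaling by library size alone gave -0.41 ± 0.11 with LPS (adjusted p = 0.0540). Without KO control replicate 6 both other treatments were called (adjusted p = 0.0398 and 0.0408). The fibril difference was also called without the 7 libraries that stood apart, at -0.30 ± 0.08 (adjusted p = 0.00933), and with the replicate block.

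Rabl2, a small GTPase of ciliary transport, fell by 0.70 ± 0.20 with fibrils (adjusted p = 0.0262), from 2.90, 2.84, 3.10 and 2.17 CPM in WT to 1.92, 2.18, 1.15, 2.04 and 1.16 in KO. KO replicate 2 lay above the lowest WT value, and no other KO library did. It was lower by 0.44 ± 0.18 in control and 0.50 ± 0.19 with LPS, and the averaged decrease of 0.55 ± 0.11 was called (adjusted p = 0.00226). The fibril call was lost without KO fibril replicate 3 or 5 or WT fibril replicate 1, 2 or 3 (adjusted p from 0.0590 to 0.0799), under scaling by library size alone (-0.54, adjusted p = 0.102), with no filter (adjusted p = 0.0909), with protein-coding transcripts alone (adjusted p = 0.224), with only the compared groups (adjusted p = 0.163) and with the covariate (-0.69, adjusted p = 0.347).

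A further 4 genes were called only in the average over treatments. Lmf2, a lipase maturation factor, was lower by 0.26 ± 0.08 (adjusted p = 0.0362). Zcrb1, a protein of the minor spliceosome, was lower by 0.21 ± 0.07 (adjusted p = 0.0386). Mapk12, the p38γ kinase, was higher by 1.05 ± 0.35 (adjusted p = 0.0482), and Pdzrn4, a PDZ and RING-finger protein, by 1.31 ± 0.37 (adjusted p = 0.0229). Mapk12 and Pdzrn4 averaged at most 0.699 CPM in every group. They reached 0.49 CPM, the level the filter asks for in at least 4 libraries, in 0 and 2 of 15 WT libraries and in 9 and 6 of 15 KO libraries, so they passed the filter through the KO groups alone, where they were high, and their calls are given as values only. Leaving out single libraries ended the averaged call in 22 of 30 cases for Mapk12, 12 for Lmf2, 15 for Zcrb1 and 1, KO LPS replicate 4, for Pdzrn4, and ended that of Mlc1 in 4. Of 9 other settings 5 ended the call of Mapk12, among them leaving out the 7 libraries that stood apart (0.81 ± 0.38, adjusted p = 0.132), 3 that of Lmf2, 5 that of Zcrb1 and 1, the covariate, that of Pdzrn4. The covariate also ended those of Lmf2, Zcrb1 and Mapk12 (adjusted p = 0.415, 0.655 and 0.0901). Lmf2 was called with LPS without the 7 libraries, at -0.46 ± 0.12 (adjusted p = 0.0261).

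Over the 47 tested flanking genes, 1 was called in control (Irak4), where 0.321% of all tested genes were called, 0.153% higher and 0.167% lower. With LPS 3 were called (Kif21a, Plxnb2 and Irak4), where 1.73% of genes were, 0.474% higher and 1.26% lower. With fibrils 7 were called, 5 higher and 2 lower, where 8.94% of genes were, 5.27% higher and 3.67% lower. In the average 12 were called, 7 higher and 5 lower, where 11.2% of genes were, 7.09% higher and 4.16% lower. The 7 include Mapk12 and Pdzrn4, which could pass the filter only through KO, so the averaged count is not read against that share. The called shares of the flanking genes in the 3 treatments were 2.13%, 6.38% and 14.9%. Without the 7 libraries that stood apart the counts were 2, 6, 13 and 14, the last pair including Slc2a13, which then passed the filter through KO alone, and with the other-cell score as a covariate 2, 4, 1 and 5. Their median difference was 0.03, 0.03 and -0.02 in the 3 treatments, beside 0.01, 0.02 and 0.01 over all tested genes. At an unadjusted p under 0.05 there were 11, 14 and 15 of them, beside 7.27%, 17.2% and 24.7% of all genes. The average uses the same libraries as the 3 comparisons.

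The KO effect did not differ between treatments by a called amount for any flanking gene. Of the 47, 0 were called for LPS against control and 0 for fibrils against control in edgeR, DESeq2 and limma-voom, and 3 and 8 had an unadjusted p under 0.05 in edgeR. Over all genes edgeR called 0 for both, which is 0.00%, while DESeq2 called 0 and 68. Without the 7 libraries that stood apart edgeR called 0 and 250, none of them a flanking gene. The fibril minus control differences of Mlc1, Fam19a5, Cntn1 and Kif21a were 3.53 ± 1.37, 2.88 ± 1.28, 2.55 ± 1.09 and 1.79 ± 0.86.

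Most flanking genes showed no called difference, and the fit bounds how large one could be. The 95% interval lay within 0.5 log2 units on both sides of 0 for 27 of 46 uncalled genes in control, 21 of 44 with LPS and 22 of 40 with fibrils. Abcd2, a peroxisomal very-long-chain fatty acid transporter 0.48 Mb before Lrrk2, was close to the threshold with fibrils at -0.77 ± 0.25 (adjusted p = 0.0532). Its fibril libraries were at 19.1, 21.6, 21.1 and 20.9 CPM in WT and 9.86, 16.1, 8.70, 17.4 and 8.34 in KO, with no overlap. It was named after its values were seen.

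The genes adjoining Lrrk2 gave little. Slc2a13, a myo-inositol transporter 0.10 Mb before it, had at most 23 counts in a library and was not tested, with 0 to 0.832 CPM in KO and 0 to 0.375 in WT. It reached 0.49 CPM in 0 of 15 WT and 3 of 15 KO libraries, so where it passed a filter, as it did without the 7 libraries that stood apart, it did so through KO, and its call there is not read as a difference. Smgc, a salivary gland gene 0.02 Mb after it, had no count in any library. In all, 14 members had counts but were not tested, at a mean of 0.197 CPM or less, and 5 had none.

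**Figure D4:**
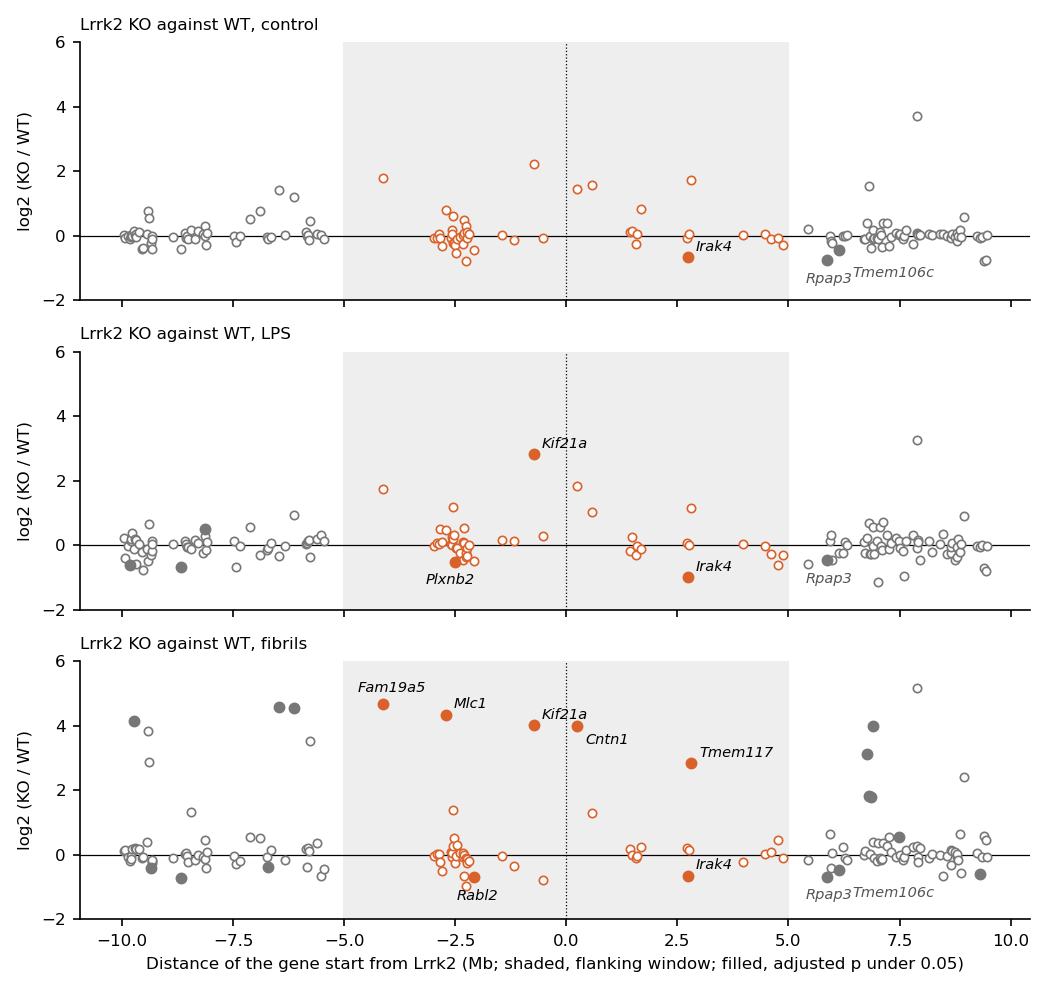
Log2 difference of KO and WT for each tested protein-coding gene within 10 Mb of Lrrk2, against the distance of its start from Lrrk2, in each treatment (orange, flanking genes; grey, genes beyond the window; filled, adjusted p under 0.05). Called genes are scattered over the window, with Irak4 called in all 3 panels and called grey genes on both sides in the LPS and fibril panels.

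The count called was taken in steps of distance. Within 1 Mb of Lrrk2 4 genes were tested, of which 0, 1 and 2 were called in control, LPS and fibrils. Between 1 and 2.5 Mb these were 0, 0 and 1 of 20, and between 2.5 and 5 Mb 1, 2 and 4 of 23. Beyond the window, 5 to 10 Mb away, 2, 4 and 14 of 114 protein-coding genes were called. On the rest of the chromosome these were 0, 5 and 12 of 174 between 10 and 20 Mb and 0, 2 and 20 of 154 farther away. Over all genes 0.321%, 1.73% and 8.94% were called. In control every called gene of these steps lay within 10 Mb of Lrrk2. With LPS and with fibrils the called share was highest within 1 Mb, where only 4 genes were tested. From 2.5 Mb outward the share fell at each step with LPS. With fibrils it was lower from 10 to 20 Mb, but higher beyond 20 Mb, than from 5 to 10 Mb. The part of distance in these shares was not tested. Rpap3, a component of the R2TP chaperone complex 5.86 Mb beyond Lrrk2 and thus outside the window, fell by 0.74 ± 0.10, 0.46 ± 0.11 and 0.68 ± 0.11 and was called in each treatment (adjusted p = 0.00014, 0.0336 and 0.00129). Tmem106c, 6.15 Mb beyond, fell by 0.45 ± 0.10 in control (adjusted p = 0.0351) and 0.48 ± 0.11 with fibrils (adjusted p = 0.00994). The first genes inside the limits are Fam19a5 and Slc38a2 (-0.28, -0.31 and -0.10), and the nearest outside are Tbc1d22a (-0.10, 0.12 and -0.46) and Slc38a4, which was not tested.

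The promoters of the flanking genes were matched by symbol, and 54 windows were found. The GC box occurred in 40 of them (74.1%, against 35.6% of all windows). The CCAAT box occurred in 19 (35.2% against 37.8%) and the ETS core in 9 (16.7% against 9.08%). TATAAA occurred in 4 (7.41% against 14.1%). The E-box, searched as CACGTG, also occurred in 4 (7.41% against 7.09%). A canonical NF-kB motif occurred in 1 (1.85% against 0.137%). A canonical NRF1 motif occurred in 0, where 0.962% of all windows hold it.

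The pathways of the flanking genes were counted for KO against WT from lists of related genes elsewhere in the genome. Beside them, 0.321%, 1.73% and 8.94% of all genes were called in control, LPS and fibrils, with medians over all genes of 0.01, 0.02 and 0.01. Of 30 tested genes of the MyD88 pathway, in which Irak4 acts, Irak4 alone was called in control. With LPS Myd88 also fell, by 1.11 ± 0.22 (adjusted p = 0.00775). With fibrils 4 of the 30 were called, Irak4 among them: the receptors Tlr4 and Tlr8 fell by 0.51 ± 0.11 and 0.77 ± 0.24, and the interleukin-1 receptor Il1r1 rose by 1.7 ± 0.55. The medians of the list were 0.00, -0.14 and -0.03.

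Among 33 tested kinesins none was called in control, and Kif21a was higher in KO than in WT with LPS. With fibrils Kif21a, Kif1a (3.26 ± 0.93) and Kif27 (3.37 ± 0.98) were higher in KO than in WT. The median over the kinesins was 0.01, 0.11 and 0.18. Among 3 tested p38 kinases Mapk14, which lies elsewhere, fell by 0.36 ± 0.08 with LPS and 0.39 ± 0.08 with fibrils. Of 3 B-type plexins Plxnb2 was lower in KO with LPS and Plxnb1 was higher in KO by 3.44 ± 0.84 with fibrils. Slc38a3 was the only one of 7 tested SLC38 amino acid transporters called, higher in KO by 4.06 ± 1.22 with fibrils.

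Of 3 tested genes known to differ between C57BL/6 substrains, Nnt, the mitochondrial transhydrogenase that C57BL/6J mice lack in full-length form, rose by 0.94 ± 0.09, 1.08 ± 0.10 and 0.80 ± 0.10 in KO cells in the 3 treatments. Wdfy1 rose by 1.16 ± 0.20 in control and 0.79 ± 0.21 with fibrils and was not called with LPS. Cyfip2 was not called within a treatment and was called in the average, lower by 0.50 ± 0.12 (adjusted p = 0.0095). The part of substrain in the differences of the flanking genes was not tested.

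Treatment changed several flanking genes within each genotype. With LPS 8 of 47 were called in WT, where 15.1% of all genes were (7.11% higher, 8.04% lower), and 5 in KO, where 13.7% were (6.38% higher, 7.36% lower). Pim3, a serine/threonine kinase induced by inflammatory signals, rose by 1.77 ± 0.30 in WT (adjusted p = 6.67e-05) and 2.18 ± 0.30 in KO (adjusted p = 5.83e-06), from means of 17.9 and 14.5 CPM to 60.8 and 65.3. In WT the glutamine transporters Slc38a1 and Slc38a2 rose by 0.67 ± 0.20 and 0.52 ± 0.18. Trabd, Zbed4, Hdac10, Brd1 and Tubgcp6 fell in WT, by 0.33, 0.31, 0.38, 0.23 and 0.25. In KO the endoplasmic reticulum stress gene Creld2 rose by 0.53 ± 0.18, and Irak4 fell by 0.44 ± 0.08 (adjusted p = 0.000315), Gxylt1 by 0.40 ± 0.13 and Tubgcp6, of the γ-tubulin complex, by 0.28 ± 0.08. The Irak4 change with LPS in WT was -0.09 ± 0.08 (adjusted p = 0.561), and the difference between genotypes is the one given above. Under scaling by library size alone, under which the median of all genes with LPS was -0.23 in WT and -0.21 in KO, the calls of Slc38a1, Slc38a2 and Creld2 were lost and those of Pim3 kept. The Creld2 call held in RLE scaling and DESeq2 and was lost in the other 8 of 10 settings. Its KO LPS libraries were at 33.6, 36.7, 18.3 and 18.5 CPM, and without replicate 2 of them the value was 0.34 ± 0.18 (adjusted p = 0.296). The call of Slc38a1 was also lost without the 7 libraries that stood apart. Leaving out single libraries ended the calls of Slc38a1 (3 of 30), Slc38a2 (18), Creld2 (14), Gxylt1 (5), Zbed4 (2), Hdac10 (3) and Tubgcp6 (3 in WT and 2 in KO), and none of Pim3 or Irak4.

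With fibrils 16 of 47 flanking genes were called in WT, where 29.4% of all genes were (13.8% higher, 15.6% lower), and 12 in KO, where 23.7% were (12.2% higher, 11.5% lower). The LPS and fibril responses share their control libraries. Prickle1, a planar cell polarity gene, rose by 2.41 ± 0.43 in WT and 1.82 ± 0.38 in KO, from 1.86 and 3.26 CPM to 9.87 and 11.7. Abcd2 fell by 0.95 ± 0.26 in WT and 1.65 ± 0.24 in KO. Pphln1 rose by 0.34 ± 0.09 and 0.26 ± 0.08, and Ppp6r2, a subunit of protein phosphatase 6, fell by 0.69 ± 0.11 and 0.30 ± 0.10. Irak4 fell by 0.28 ± 0.08 in both genotypes. In WT Selenoo and Yaf2 were called higher, at 0.42 ± 0.11 and 0.24 ± 0.08, and Hdac10 and Cntn1 lower, at -0.60 ± 0.13 and -3.40 ± 0.90. Kif21a, Mlc1 and Fam19a5 were also called lower in WT. Neither they nor Cntn1 were called in KO. Markers of other cells also fell in WT with fibrils: 5 of 8 astrocyte, 3 of 10 oligodendrocyte-lineage, 2 of 4 neuronal, 3 of 4 endothelial and pericyte and 5 of 6 fibroblast markers. Among the endothelial and pericyte markers 1 was called higher, and their summed median was 10.3 CPM in WT control and 15.3 with fibrils. With the other-cell covariate 7 of the 16 WT calls were left, and that of Cntn1 was lost (adjusted p = 0.228). The scores of WT control and WT fibril libraries did not overlap, so the covariate cannot tell score and treatment apart here. In KO Mapk11, the p38β kinase (0.82 ± 0.19), Trabd (0.34 ± 0.08) and Zcrb1 (0.44 ± 0.11) were called higher, and Tubgcp6 was called in both, at -0.25 ± 0.08 in each. Alg10b, an N-glycan glucosyltransferase, was called lower in KO at -0.31 ± 0.09. No difference between genotypes in these responses was called. Leaving out single libraries ended the calls of Yaf2 (6 of 30 libraries) and Alg10b (KO fibrils replicate 5). Under scaling by library size alone the calls of Pphln1, Selenoo and Yaf2 in WT were lost, and the Yaf2 call was lost in 6 of 10 settings. In KO, Prickle1, Mapk11 and Abcd2 were the 3 genes still called with only the compared groups in the fit, and Pphln1 and Ppp6r2 were not called without the 7 libraries.

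**Figure D5:**
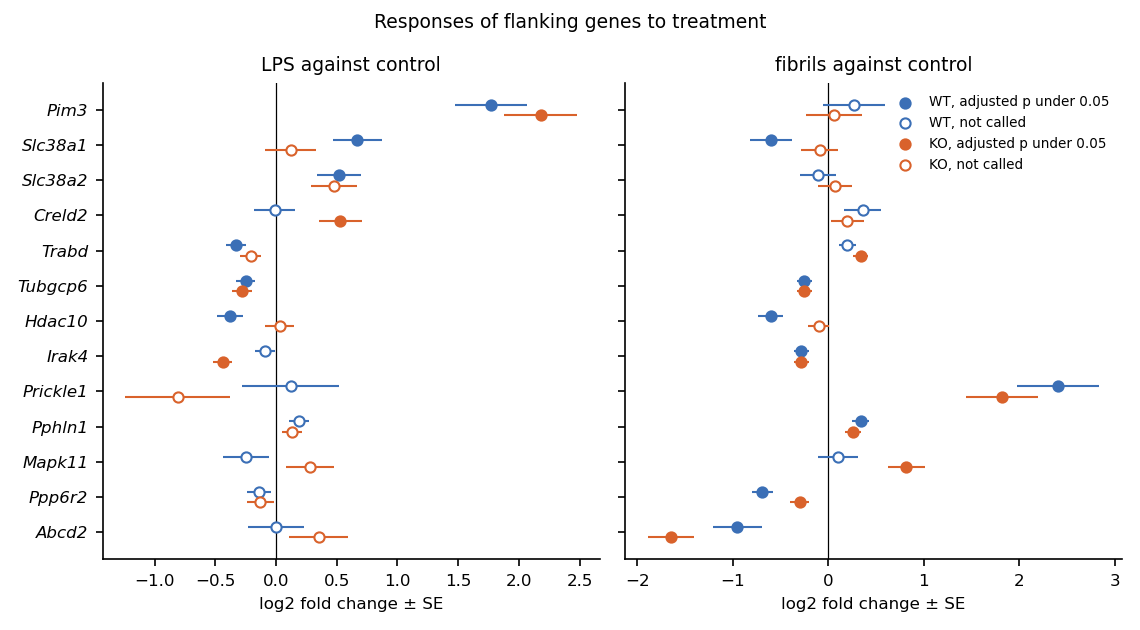
Log2 fold change ± SE of 13 flanking genes with LPS (left) and fibrils (right) against control, in WT (blue) and KO (orange), with filled points for an adjusted p under 0.05. Pim3 rose with LPS at 1.77 and 2.18, and Prickle1 rose and Abcd2 fell with fibrils in both genotypes.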

How the data were processed

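Per the labels' protocols, microglial total RNA was depleted of ribosomal RNA, made into strand-specific libraries and read from a single end. The deposited table holds whole-number counts per Ensembl transcript, without normalization. Per the submitters' processing notes, CASAVA 1.7.1 and STAR 2.4.2a were used with mm10. No source used here gives the counting program, its annotation or how it treated reads shared between transcripts. Of 94647 transcripts 91225 were matched to GENCODE M21 and summed to genes, and the 3422 left out held 0.789% to 0.902% of the counts.

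Genes were filtered (edgeR filterByExpr, minimum count 10), scaled with TMM (0.827 to 1.14) and fitted in edgeR 4.0.16 (R 4.3.3) with a mean per group, using the quasi-likelihood test with 24 residual degrees of freedom and Benjamini-Hochberg adjustment over all 14338 genes. Called means an adjusted p under 0.05. The fit was checked on simulated data. CPM was also tested by exact permutation. Alternatives included limma 3.58.1 and DESeq2 1.42.0. The members, lists and naming rules were chosen with earlier results of these data known. The text names every flanking gene called in a KO comparison, Irak4, Kif21a, the nearest gene on each side of Lrrk2, the 4 called genes of smallest p in each direction of a treatment response, and up to 4 called genes of each list. The result of 1 list is not reported here. Abcd2, Pus7l, Twf1, Rpap3, Tmem106c and genes called only under an alternative were chosen after their values were seen. Leaving out the 7 libraries that stood apart and the other-cell covariate were alternatives chosen after seeing the data.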

Additional observations from a re-analysis of the deposited data

Results flagged for a closer look

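Across 72 sets of 4 to 6 libraries of the 12 genes called in a KO comparison, 4 held a library whose gap to its nearest neighbour was a large part of the group's range, where chance gives about 1 in 20. WT LPS replicate 1 accounts for 3 of them. It had 4.75 CPM of Kif21a, where the other WT LPS libraries had 0 to 1.39. It had 27.0 CPM of Mlc1, where the others had 0.288 to 6.13, and 3.19 CPM of Fam19a5, where the others had 0 to 1.12. Its other-cell score of 2.76 was the highest of its group. Zcrb1 was at 24.7 CPM in KO control replicate 6, where the other KO control libraries had 17.3 to 19.5.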

How the results depend on the processing

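Among 3019 recomputed values of named genes, 2793 kept their direction and side of the threshold, 198 lost a call, 19 gained one and 9 changed sign. Of 399 recomputed counts 361 stayed within 1.5 times the value given. The count of flanking genes called in KO against WT was 2 in control with limma-voom, with DESeq2, without the 7 libraries that stood apart and with the other-cell covariate. It was 5 with LPS with DESeq2 or with only the compared groups in the fit, and 6 without the 7 libraries. With fibrils it was 3 with limma-voom, 13 without the 7 libraries and 1 with the covariate, and the covariate left 5 in the average. The LPS response held 14 calls in WT and 11 in KO under scaling by library size alone, 5 and 2 with no filter, 5 and 3 with protein-coding transcripts alone, and 2 in KO with only the compared groups. The fibril response held 7 in WT with the covariate and 3 in KO with only the compared groups, a setting that has no averaged comparison.

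Same-numbered KO and WT libraries of a treatment had r above 0.1 in 6 of 13 pairs, from -0.52 to 0.49. In control r was 0.29, -0.04, 0.49, 0.17 and 0.18. Whether same-numbered libraries of 1 genotype pair across treatments was not tested, so pairing is not settled. With a replicate block the counts were 2, 3, 9 and 11 for KO against WT in control, LPS, fibrils and the average, and 3 for LPS in KO. Scaled by library size alone, the median of all genes was 0.11 with LPS, 0.16 with fibrils and 0.10 in the average, and higher against lower calls split 6 and 1 with fibrils and 9 and 3 in the average (8 and 4 with RLE scaling). For treatment responses the splits were then 1 and 13 (LPS, WT), 1 and 10 (LPS, KO), 1 and 18 (fibrils, WT; 3 and 11 with RLE scaling) and 4 and 9 (fibrils, KO).

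Leaving out single libraries gave 1 to 2 calls in control, 3 to 4 with LPS, 4 to 8 with fibrils, 7 to 13 in the average, 2 to 8 and 2 to 7 for LPS in WT and KO, 11 to 18 and 8 to 15 for fibrils in WT and KO, and 0 for both differences between treatments. Lmf2 with fibrils changed sign under scaling by library size alone (0.09), with the covariate (0.04) and over single libraries (-0.15 to 0.01), and Zcrb1 with fibrils under the first pair (0.05 and 0.11). Mlc1 changed sign with the covariate in control (-0.77) and the average (-0.16), and with LPS over single libraries (-0.08 to 1.64). The cause was not tested.

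Over all genes, 46 were called in control against 98 with DESeq2, 152 without the 7 libraries, 86 with the covariate and 17 with only the compared groups. With LPS 248 were called against 677, 1082, 327 and 1097 in that order, 125 with the block and 117 with no filter. With fibrils 1282 were called against 1957, 2579, 55 and 758, 2112 with the block, 575 with limma-voom and 826 with no filter, and in the average 1613 against 3328 without the 7 libraries, 358 with the covariate and 2487 under scaling by library size alone. Low counts limit Fam19a5, Cntn1, Tmem117, Mapk12, Pdzrn4 and Slc2a13.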

Other observations

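Between the limits of the window the annotation also gives 42 noncoding genes, of which 7 were tested. A130051J06Rik, an antisense gene at chromosome 15, 95787856 to 95791642, which overlaps the start of Ano6 (a phospholipid scramblase), was lower in KO by 1.46 ± 0.33 in control (adjusted p = 0.0427, edgeR) and by 1.16 ± 0.21 in the average (adjusted p = 0.000811). With LPS and fibrils it was lower by 1.11 ± 0.36 and 0.91 ± 0.37 (adjusted p = 0.104 and 0.124). If strand was not used in counting, its reads cannot be told apart from those of Ano6. It was the only one called in these comparisons, and it was named after its values were seen.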
